A study of Mus musculus with 16 samples.

Results

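Collagen and laminin genes encode the main structural proteins of the extracellular matrix, and their transcripts were followed in mouse neural stem cells in which the lncRNA *RUS* was knocked down. The genes were chosen by symbol alone: every line of the deposited tables named Col, a number, a and a number, or Lam, a letter from a to c and a number. This gave 55 symbols, 44 collagens and 11 laminins, of which 51 reached a mean of at least 0.1 TPM (transcripts per 1000000, a level that is corrected for transcript length) on at least 1 day. These 51 members, 40 collagens and 11 laminins, were studied among the 55365 gene lines that both tables share. Of the 51, 46 reached the minimum on both days, *Lamc3* did so on day 5 alone, and *Col13a1*, *Col25a1*, *Col28a1* and *Col6a4* did so on day 7 alone. *Col10a1*, *Col19a1*, *Col24a1* and *Col6a6* stayed below it on both days and were not tested within a day.

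The cells were neural stem cells (NSC) grown as adherent cultures from E15 to E16 cortices of C57BL/6 mouse embryos, with the brains of embryos of both sexes pooled. A lentivirus carrying either a scrambled shRNA (shRNA-CON) or an shRNA against *RUS* (shRNA-RUS) was added 1 day after seeding, so that all groups had been transduced. Cultures received basic fibroblast growth factor until day 5, and differentiation was started at that point in neurobasal medium with B27 and GlutaMAX. Libraries of polyA RNA were made on day 5 and day 7, and each of the 4 combinations of shRNA and day had 4 libraries, which makes 16. The labels number the replicates and do not say whether they came from separate cultures or pools of embryos, so p-values measure the spread between these libraries, which may be technical.

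Collagen chains wind in threes into triple helices. Fibrillar collagens build banded fibrils, FACIT collagens (fibril-associated collagens with interrupted triple helices) sit on the surface of such fibrils, collagen IV and the short-chain collagen VIII form sheet-like networks, multiplexins carry sugar chains in basement membranes, and a few collagens span the cell membrane. Laminins are cross-shaped trimers of an alpha, a beta and a gamma chain, which assemble on cells and are joined to the collagen IV network by nidogen. In the embryonic cortex a basement membrane under the meninges anchors the end-feet of radial glia, the stem cells of this tissue, and laminins are common substrates for NSC in culture.

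The 6 collagen IV genes lie as 3 pairs that start next to each other and are read in opposite directions. *Col4a1* (chr8:11198423-11312826, minus strand) and *Col4a2* (chr8:11312805-11449287, plus strand; GENCODE vM21, GRCm38) had starts 21 bp apart, so that 22 bp of exon are shared by both. *Col4a3* (chr1:82586921-82722059, plus strand) and *Col4a4* (chr1:82448423-82586849, minus strand) started 72 bp apart. *Col4a5* (chrX:141475385-141689234, plus strand) and *Col4a6* (chrX:141165403-141474076, minus strand) started 1309 bp apart in this annotation and 1343 bp apart in RefSeq. The start regions of *Col4a2*, *Col4a5* and *Col4a6* are shown because the genes of the first pair were both higher in shRNA-RUS on day 7, while of the last pair the same was found for *Col4a6* alone. Each window holds 250 bases before and 50 after the RefSeq start (GRCm38.p6), 5′ to 3′ on the strand of the gene. For *Col4a2* (chr8:11312555-11312854, plus strand) capitals mark the 78 bases that also lie in the window of *Col4a1*, and for *Col4a5* (chrX:141475169-141475468, plus strand) and *Col4a6* (chrX:141474027-141474326, minus strand) capitals mark matches to the words searched.
*Col4a2*: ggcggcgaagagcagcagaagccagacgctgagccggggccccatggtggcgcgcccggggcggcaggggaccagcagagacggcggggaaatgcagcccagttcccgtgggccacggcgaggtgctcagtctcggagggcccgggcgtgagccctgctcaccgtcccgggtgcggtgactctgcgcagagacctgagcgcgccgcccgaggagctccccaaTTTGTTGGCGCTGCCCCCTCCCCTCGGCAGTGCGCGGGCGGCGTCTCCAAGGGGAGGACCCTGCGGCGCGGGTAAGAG
*Col4a5*: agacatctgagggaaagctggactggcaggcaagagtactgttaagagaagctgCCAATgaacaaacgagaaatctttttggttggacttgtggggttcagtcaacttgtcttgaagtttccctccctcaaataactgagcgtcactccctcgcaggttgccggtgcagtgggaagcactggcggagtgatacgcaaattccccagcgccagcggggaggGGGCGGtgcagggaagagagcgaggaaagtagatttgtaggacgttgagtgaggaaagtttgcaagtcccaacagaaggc
*Col4a6*: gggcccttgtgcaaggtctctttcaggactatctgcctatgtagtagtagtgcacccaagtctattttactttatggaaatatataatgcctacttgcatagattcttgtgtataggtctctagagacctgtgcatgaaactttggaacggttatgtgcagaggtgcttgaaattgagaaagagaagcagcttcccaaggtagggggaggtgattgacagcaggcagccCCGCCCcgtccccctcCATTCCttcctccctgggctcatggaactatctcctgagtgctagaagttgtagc

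Short words known from promoters were counted on both strands in all start windows of this length. A window was present for 40 of the 55 symbols, 44 windows in all, of which 4 belong to the symbols below the minimum level. The GC box, GGGCGG, stood in 26 of the 44 windows (59.1%) and in 35.7% of all 32851 windows. The CCAAT box stood in 31.8% of the 44 windows against 37.4% of all. The TATA word, written TATAAA here, stood in 11.4% of the 44 windows against 13.6% of all. The word bound by TEAD factors, GGAATG, stood in 13.6% of the 44 windows against 14.7% of all. In the sequences above, the capitals of *Col4a5* mark a CCAAT box and a GC box, and those of *Col4a6* mark a GC box and a TEAD word, both on the other strand. Such matches are a description of the letters and not of bound factors.

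Sequencing depth cannot be read from TPM, and it is unknown here. TPM were divided by a library factor (0.845 to 1.10 over the 16 libraries), and the quotients are called scaled TPM. Between 25529 and 29039 genes had a TPM above 0. *Gm20754*, the mouse *RUS* transcript, was close to the limit of this measurement: its TPM were 0.24, 0.11, 0.18 and 0.16 in shRNA-CON and 0.05, 0, 0.12 and 0.32 in shRNA-RUS on day 5, and 0.70, 0.72, 0.26 and 0.54 against 0.54, 0.38, 0 and 0.04 on day 7. The groups overlapped on both days (exact permutation test, two-sided, p = 0.543 and 0.143; the smallest p that 4 against 4 libraries allow is 0.0286), so these values do not check the labels. Levels of the 8 stem cell markers that were listed varied widely. *Vim* lay between 4866 and 12428 TPM and *Sox2* between 126.5 and 184 TPM in all libraries. *Nes* lay between 24.8 and 118 TPM and *Hes5* between 3.61 and 11.7 TPM. On day 5, replicate 1 of shRNA-RUS held the lowest level of its group for 28 of the 47 members, and on day 7 replicate 4 of shRNA-CON did so for 25 of 50 and replicate 1 of shRNA-RUS for 22 of 50.

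*Lamb2*, the laminin beta 2 chain, was the most abundant member. It measured 119, 125, 129 and 134 scaled TPM in shRNA-CON against 97.9, 153, 151 and 138 in shRNA-RUS on day 5, and 109, 113, 108 and 90.03 against 121, 157, 168 and 165 on day 7. *Col4a5* came next with 102, 92.8, 98.6 and 92.7 scaled TPM in shRNA-CON against 90.4, 92.2, 94.5 and 116 in shRNA-RUS on day 5, and 63.7, 65.5, 67.8 and 67.9 against 68.1, 73.98, 73.9 and 63.4 on day 7. Below them, means over the 16 libraries were 50.9 scaled TPM for *Lama5*, 44.2 for *Lamc1*, 42.7 for *Col4a6*, 42.2 for *Col4a1*, 41.4 for *Col5a2*, 27.7 for *Col18a1* and 25.6 for *Col12a1*. *Lamb2*, *Lama5* and *Lamc1*, an alpha, a beta and a gamma chain that can form a trimer together, made up 92.6 to 93.4% of the laminin sum in the libraries of shRNA-CON and 92.3 to 94.1% in those of shRNA-RUS on day 5, and 92.5 to 93.5% and 94.6 to 95.6% on day 7. The fibrillar collagens I and III, which dominate connective tissue, were rare here, with means of 12.2 ± 1.26 scaled TPM for *Col1a2*, 2.67 ± 0.505 for *Col3a1* and 2.59 ± 0.764 for *Col1a1* (SD, n = 4) in shRNA-CON on day 5.

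**Figure D1:**
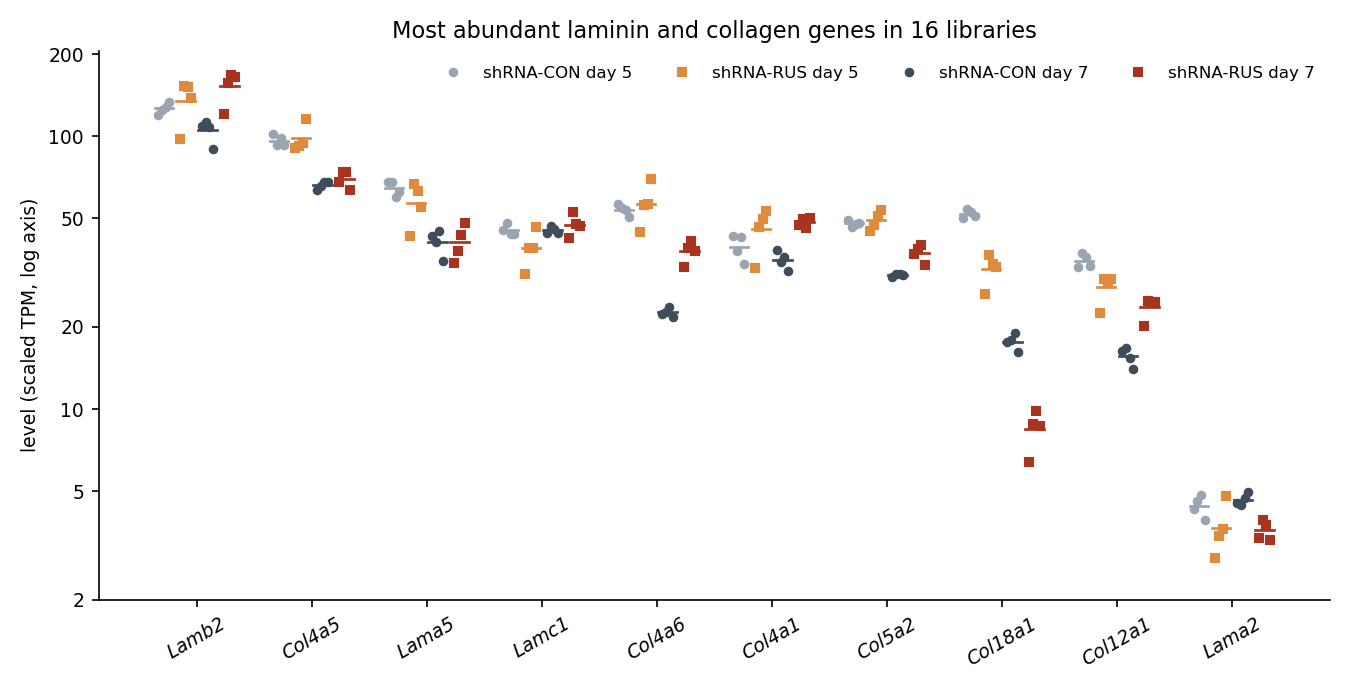
Level in scaled TPM (log axis) of 4 laminins and 6 collagens with high mean TPM, with 1 point per library (n = 4 per group) and a line at the group mean. *Lamb2* and *Col4a5* lie highest, *Col18a1* is lower in shRNA-RUS than in shRNA-CON on both days, and *Col4a6* is higher in shRNA-RUS on day 7.

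The summed level of each gene class depended on the scale on day 5. As deposited, the collagens summed to 554, 499, 518 and 506 TPM in shRNA-CON against 365, 448, 455 and 503 TPM in shRNA-RUS on day 5 (means 519.6 ± 24.5 and 443 ± 57.5, SD, n = 4), and the groups overlapped at 1 library. On day 7 they summed to 372, 373, 387 and 353 TPM in shRNA-CON against 369, 414, 422 and 396 TPM in shRNA-RUS (means 371 ± 13.8 and 400.3 ± 23.4), with replicate 1 of shRNA-RUS among the controls. The laminin sum was 247 ± 5.58 TPM in shRNA-CON against 216 ± 39.3 TPM in shRNA-RUS on day 5, where replicate 1 of shRNA-RUS lay at 158 TPM and the other libraries of that group between 232 and 239 TPM. In scaled TPM the day 5 sums lay closer together, at 534 ± 7.17 in shRNA-CON and 506 ± 50.2 with shRNA-RUS for the collagens and at 254 ± 4.21 and 247 ± 41.3 for the laminins. On that scale replicate 1 of shRNA-RUS had a laminin sum of 187 and the others of its group lay between 257 and 277, against 251 to 259 in the controls, so the lower laminin mean of shRNA-RUS rested on that library. As deposited, on day 7 the laminins summed to 225, 235, 233 and 195 TPM in shRNA-CON against 226, 284, 299 and 299.5 TPM in shRNA-RUS, with 1 library of shRNA-RUS among the controls. Collagen IV took 35.9 to 39.4% of the collagen sum in shRNA-CON against 40.4 to 47.3% in shRNA-RUS on day 5, and 40.7 to 41.5% against 48.5 to 49.6% on day 7. The shares did not overlap between the shRNAs on either day. Sums over members were given no test, and in bulk RNA fewer cells of a type and less RNA per cell cannot be told apart.

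**Figure D2:**
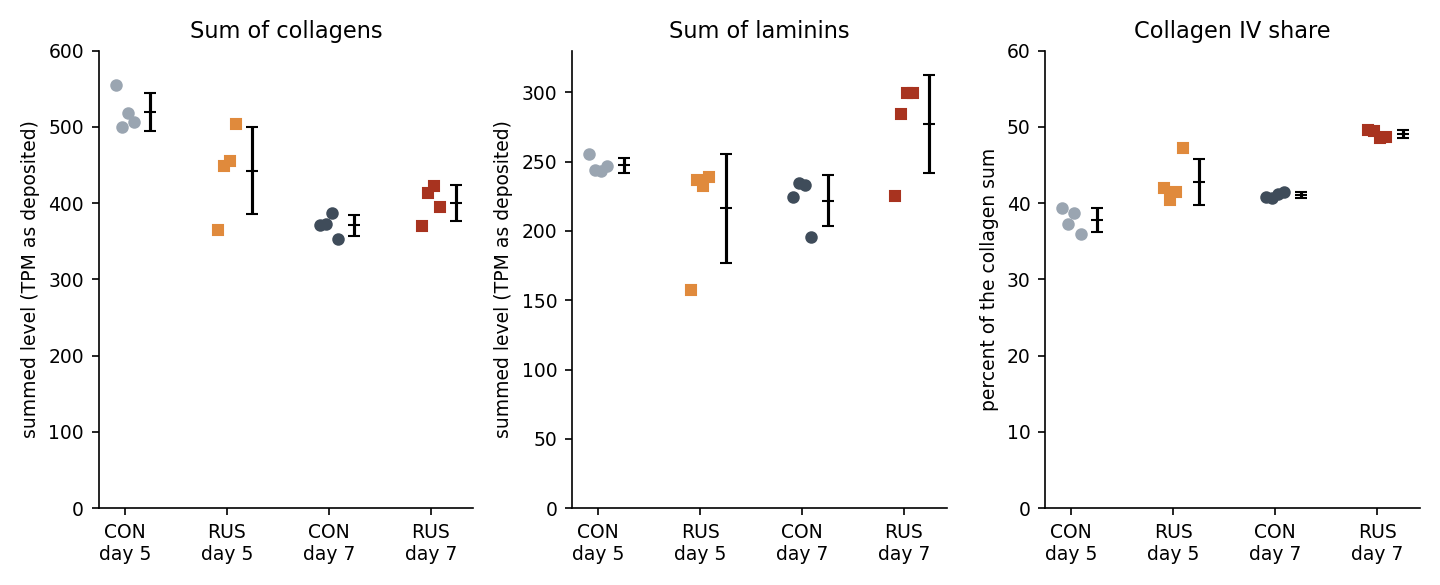
Summed TPM as deposited of the collagens and of the laminins, and the percent of the collagen sum that the 6 collagen IV genes took, with 1 point per library and black bars for the mean ± SD (n = 4). The laminin sum spreads most in shRNA-RUS on both days, and the collagen IV share on day 7 lies at 48.5% or more in shRNA-RUS and at 41.5% or less in shRNA-CON.

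The knockdown comparison asked on each day which members differed between shRNA-RUS and shRNA-CON (limma on log2(scaled TPM + 0.1), 4 libraries against 4, Benjamini-Hochberg over all genes tested, called at an adjusted p under 0.05). On day 5, 2 of the 47 members tested were called higher and 10 lower, beside 14.8% and 17.9% of the 22581 genes tested. The median log2 fold change was -0.11 over the members and -0.061 over all genes. On day 7, 16 of 50 members were called higher and 12 lower, beside 23.4% and 25.8% of 24606 genes, and the medians were 0.074 over the members and -0.029 over all genes. The share called on day 7 was thus near that of all genes, while on day 5 the share called higher was 4.26% of the members. All 12 members called on day 5 were collagens. Groups did not overlap for 13 of 47 members on day 5 (2 higher and 11 lower) and for 24 of 50 on day 7 (12 in each direction), against 32.8% and 47.0% of all genes. Without replicate 1 of shRNA-RUS, 6 members were called higher on day 5, and the share of all genes in that run is not given here. With TPM as deposited, the median of all genes on day 5 moved from -0.061 to -0.21, and 1 member was called higher and 16 lower, beside 1768 and 6037 of all genes. Quantile normalization gave 5 and 8, beside 3342 and 3327 of all genes. The shares of all genes without these changes of scale, 14.8% and 17.9% on day 5 and 23.4% and 25.8% on day 7, are also the background of the counts by class.

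**Figure D3:**
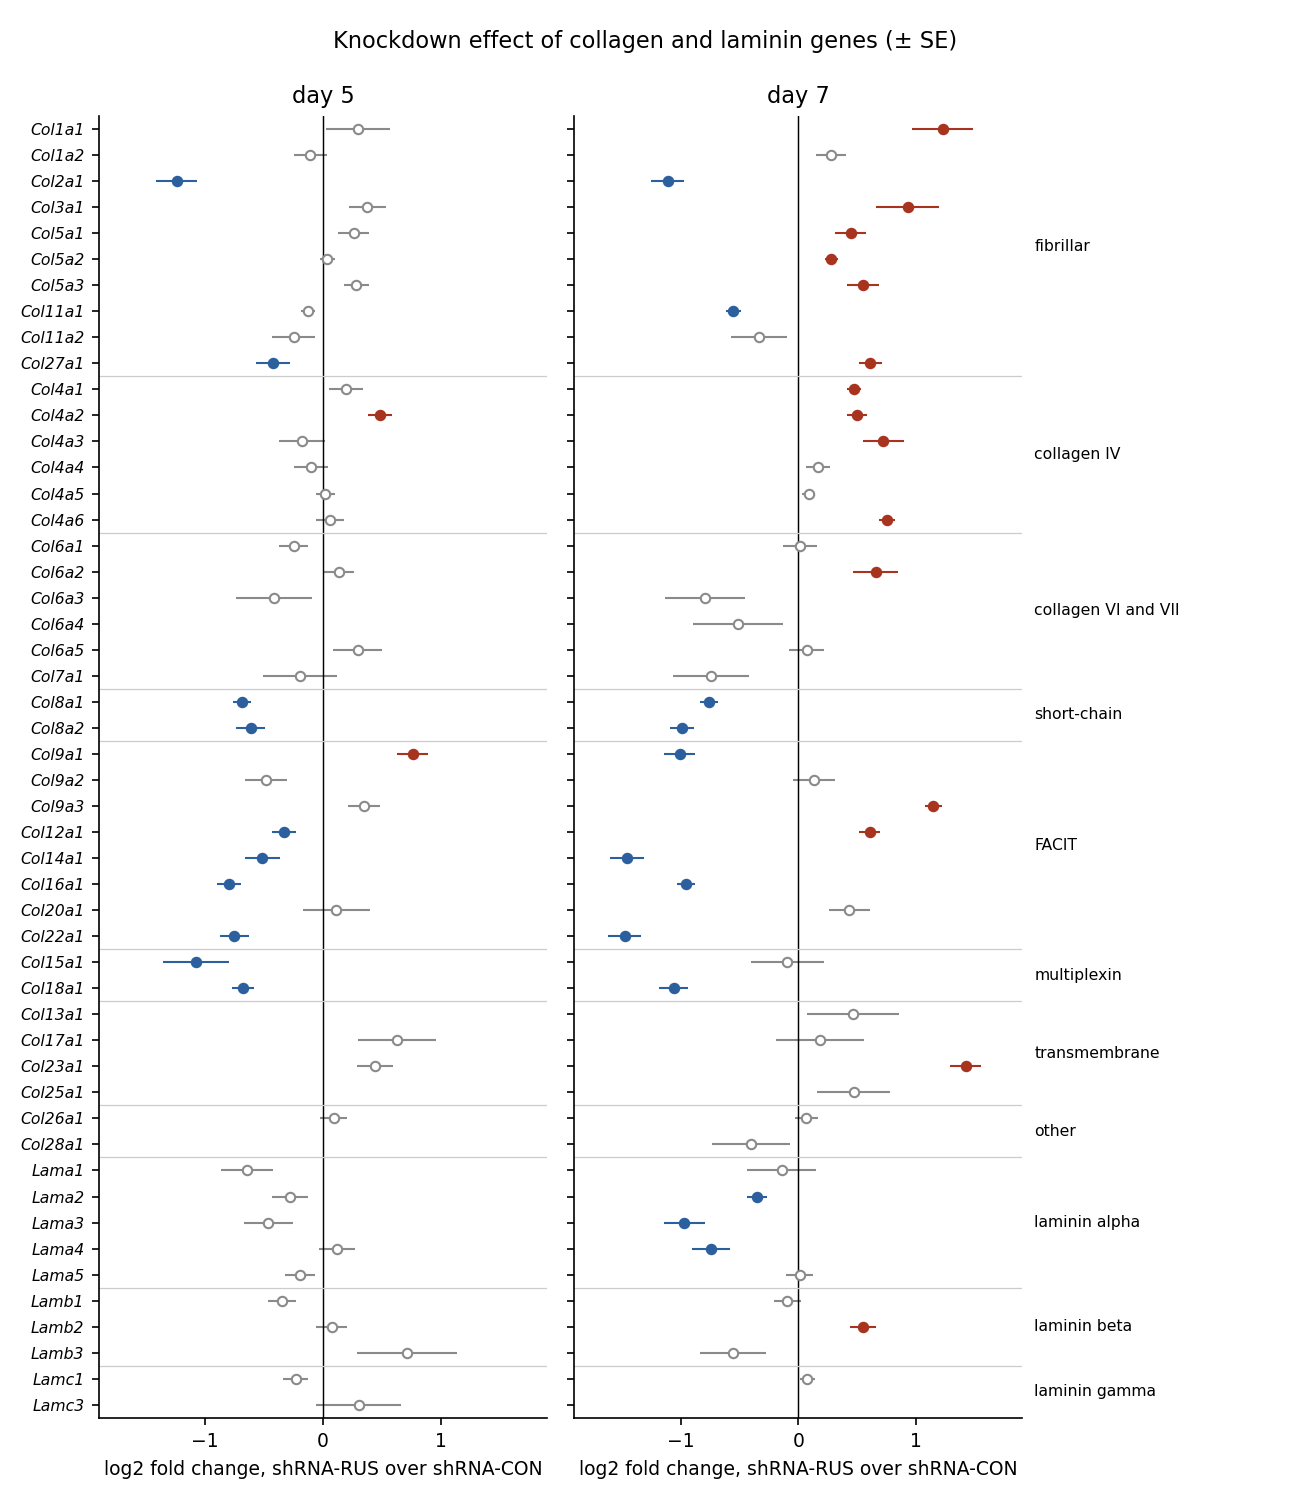
Log2 fold change of shRNA-RUS over shRNA-CON with its SE (limma, n = 4 libraries per group) for the members tested except 1 laminin, by role. Red points were called higher, blue points lower and open grey points neither, and the calls of day 7 include 4 of the 6 collagen IV genes in red and both collagen VIII genes in blue.

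Across the days, 7 members were called lower on both (*Col2a1*, *Col8a1*, *Col8a2*, *Col14a1*, *Col16a1*, *Col18a1* and *Col22a1*), and *Col4a2* was called higher on both. *Col9a1* was called higher on day 5 and lower on day 7, and *Col12a1* and *Col27a1* the other way round. Another 13 members were called higher on day 7 alone and 4 lower on day 7 alone, and *Col15a1* was called lower on day 5 alone. A total of 17 members tested on both days were called on neither. The shares of all genes with these patterns over both days are not given here.

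Among the collagen IV genes, 1 of 6 was higher on day 5 and 4 of 6 on day 7, and none was lower, beside 14.8% and 23.4% of all genes called higher (medians 0.041 and 0.48). Collagen IV is the network-forming collagen of all basement membranes. *Col4a1*, a chain of its most widespread form, measured 42.98, 37.8, 42.7 and 34.1 scaled TPM in shRNA-CON against 32.9, 46.6, 49.6 and 53.3 in shRNA-RUS on day 5, and 38.5, 34.5, 36.05 and 32.00 against 47.4, 49.8, 46.2 and 50.2 on day 7. All shRNA-RUS libraries lay above all controls on day 7 and not on day 5, with log2 fold changes of 0.20 ± 0.15 (SE, limma adjusted p = 0.345) and 0.47 ± 0.06 (adjusted p = 0.000133). Its partner *Col4a2* measured 10.6, 10.2, 10.1 and 10.5 scaled TPM against 11.6, 15.3, 16.1 and 15.4 on day 5, and 12.9, 13.2, 14.5 and 11.9 against 16.4, 19.2, 19.96 and 17.9 on day 7. The groups were apart on both days, by 0.48 ± 0.10 (limma adjusted p = 0.0059) and 0.50 ± 0.082 (adjusted p = 0.000751) on the log2 scale. With TPM as deposited the call of *Col4a2* on day 5 was lost (0.33, adjusted p = 0.058), and without replicate 1 of shRNA-RUS *Col4a1* was called on day 5 as well (0.35, adjusted p = 0.025).

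*Col4a6*, a chain of a collagen IV form found in fewer tissues, measured 56.3, 54.4, 53.7 and 50.5 scaled TPM in shRNA-CON against 44.7, 55.9, 56.3 and 69.6 in shRNA-RUS on day 5, and 22.3, 22.7, 23.8 and 21.7 against 33.1, 39.00, 41.5 and 37.8 on day 7. The day 5 groups overlapped and the day 7 groups were far apart: the log2 difference was 0.75 ± 0.07 (SE; adjusted p = 1.92e-05, limma) on day 7 and 0.061 ± 0.12 (adjusted p = 0.725) on day 5. *Col4a5*, which starts beside it, gave 0.022 ± 0.082 (limma adjusted p = 0.868) on day 5 and 0.088 ± 0.055 (adjusted p = 0.222) on day 7, and it was called on day 7 once replicate 4 of shRNA-RUS was left out (0.14, adjusted p = 0.0387). The ratio of *Col4a6* to *Col4a5* was 0.545 to 0.587 in the libraries of shRNA-CON and 0.494 to 0.606 in those of shRNA-RUS on day 5. On day 7 it was 0.320 to 0.350 against 0.486 to 0.597, so that the ratio had dropped in the controls and stayed near its day 5 range in shRNA-RUS. *Col4a3* and *Col4a4*, chains of the collagen IV of kidney, lung and eye, were rare: *Col4a3* measured 1.52 ± 0.225 scaled TPM in shRNA-CON against 2.57 ± 0.582 in shRNA-RUS on day 7 (SD, n = 4; log2 fold change 0.72, limma adjusted p = 0.00629), and *Col4a4* stood at 2.34 ± 0.0939 and 2.62 ± 0.317. An annotated transcript on the other strand covers 5.65% of the exons of *Col4a3*, and the counting is not stated to use strand.

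Of the 10 fibrillar collagens tested, 2 were lower and none higher on day 5, and 6 were higher and 2 lower on day 7, with list medians of -0.034 and 0.36 on the log2 scale. *Col1a1*, a chain of the main collagen of bone and skin (chr11:94936224-94953042, plus strand), measured 2.35, 2.38, 1.95 and 3.701 scaled TPM in shRNA-CON against 2.28, 4.69, 3.91 and 2.26 in shRNA-RUS on day 5, and 0.737, 0.541, 1.12 and 0.449 against 1.29, 1.65, 1.94 and 1.94 on day 7. Levels fell between the days in both groups, and on day 7 all shRNA-RUS libraries lay above the controls (log2 fold change 1.23 ± 0.26, limma adjusted p = 0.00328). *Col1a2*, the other chain of collagen I, stood at 3.04 ± 0.226 and 3.703 ± 0.581 scaled TPM on day 7 (SD, n = 4; adjusted p = 0.102 with limma), and was called higher without replicate 1 of shRNA-RUS (adjusted p = 0.009) and with quantile normalization (0.0439). *Col3a1*, which joins collagen I in soft tissue (chr1:45311538-45349706, plus strand), measured 2.36, 3.24, 2.14 and 2.94 scaled TPM against 3.08, 4.27, 3.34 and 3.23 on day 5 and 1.08, 0.615, 1.78 and 0.880 against 1.92, 1.76, 2.09 and 2.25 on day 7. Its day 7 groups touched at 1 control library, and the difference of 0.93 ± 0.26 passed the test (limma adjusted p = 0.016). On day 5 it was called higher with quantile normalization (adjusted p = 0.0301).

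*Col5a2*, a chain of collagen V that starts collagen I fibrils (chr1:45374321-45503282, minus strand), was the most abundant fibrillar collagen. It measured 49.5, 46.5, 47.6 and 48.2 scaled TPM in shRNA-CON against 45.04, 47.4, 51.04 and 53.6 in shRNA-RUS on day 5, and 30.5, 31.2, 31.4 and 30.9 against 37.1, 38.6, 39.8 and 33.7 on day 7, a small difference of 0.28 ± 0.054 on the log2 scale with no overlap (limma adjusted p = 0.00189). Its partner chains *Col5a1* and *Col5a3* were also higher on day 7, by 0.44 and 0.55, and without replicate 1 of shRNA-RUS both were called on day 5 (adjusted p = 0.0182 and 0.0207 with limma), *Col5a3* also with quantile normalization (0.0181). *Col2a1*, the cartilage collagen that is also made in the neuroepithelium (chr15:97975602-98004695, minus strand), went the other way: it measured 2.33, 2.65, 2.43 and 2.38 scaled TPM against 1.08, 0.935, 1.26 and 0.690 on day 5, and 1.19, 1.24, 1.49 and 1.25 against 0.556, 0.486, 0.582 and 0.555 on day 7. The groups were apart on both days, with log2 fold changes of -1.24 ± 0.17 (limma adjusted p = 0.000671) and -1.11 ± 0.14 (adjusted p = 0.000141). *Col11a1*, which starts collagen II fibrils, was called lower on day 7 (27.9 ± 0.319 scaled TPM in shRNA-CON against 18.9 ± 1.87 in shRNA-RUS, SD, n = 4, limma adjusted p = 0.000106), and on day 5 only with TPM as deposited (-0.28, adjusted p = 0.025). Its partner *Col11a2* was called lower on day 7 only without replicate 3 of shRNA-RUS (adjusted p = 0.0218).

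*Col27a1*, a fibrillar collagen of cartilage (chr4:63214004-63334991, plus strand), was called in opposite directions on the 2 days. It measured 2.67, 2.43, 2.22 and 2.42 scaled TPM in shRNA-CON against 1.44, 1.83, 2.23 and 1.69 in shRNA-RUS on day 5, and 3.63, 3.56, 4.35 and 3.54 against 5.21, 5.73, 6.38 and 5.66 on day 7. On day 5 the groups overlapped at 1 library and the log2 difference was -0.43 ± 0.14 (limma adjusted p = 0.0468), a call that was lost when any library of shRNA-CON or replicate 1, 2 or 4 of shRNA-RUS was left out (adjusted p of 0.0694 to 0.114), with no filter (0.0918) or with quantile normalization (-0.27, adjusted p = 0.184). On day 7 all shRNA-RUS libraries lay above the controls (0.61 ± 0.097, limma adjusted p = 0.000559), and this call was kept in every alternative run.

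Collagen VI forms beaded filaments around cells, and collagen VII anchors epithelia. None of the 5 genes tested was called on day 5, and on day 7 *Col6a2* alone of 6 was called, higher, with 0.923, 0.808, 0.861 and 0.684 scaled TPM in shRNA-CON against 0.935, 1.39, 1.699 and 1.37 in shRNA-RUS (0.65 ± 0.19, limma adjusted p = 0.018). Without replicate 3 of shRNA-RUS that call was lost (adjusted p = 0.0508). *Col6a1*, its partner chain, stood at 3.76 ± 0.335 and 3.798 ± 0.690 scaled TPM (SD, n = 4), and on day 5 it was called lower with TPM as deposited (limma adjusted p = 0.0499). *Col7a1* stood at 1.85 ± 0.611 in shRNA-CON against 1.07 ± 0.444 in shRNA-RUS on day 7, and was called lower only without replicate 4 of either group (adjusted p = 0.0162 and 0.0299 with limma), and *Col6a3* only without replicate 4 of shRNA-CON (adjusted p = 0.0432).

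Both chains of collagen VIII, a short-chain collagen of networks under endothelia and in the cornea, were lower on both days. *Col8a1* (chr16:57624258-57754737, minus strand) measured 32.1, 29.5, 30.2 and 27.96 scaled TPM in shRNA-CON against 18.1, 17.7, 17.4 and 21.3 in shRNA-RUS on day 5, and 24.4, 25.7, 26.5 and 27.6 against 15.8, 16.1, 16.1 and 13.00 on day 7. Every shRNA-RUS library lay below every control, at 0.622 and 0.585 times the control mean (log2 fold change -0.68 ± 0.077 and -0.76 ± 0.076, limma adjusted p = 0.000214 and 2.87e-05). *Col8a2* (chr4:126286793-126314330, plus strand) measured 2.17, 1.94, 2.39 and 2.502 scaled TPM against 1.36, 1.57, 1.45 and 1.34 on day 5, and 4.21, 4.16, 4.07 and 3.95 against 1.94, 2.02, 2.33 and 1.76 on day 7. The controls rose between the days and the gap widened from -0.61 to -0.99 on the log2 scale (limma adjusted p = 0.00486 and 3.14e-05), although the difference between the days was not called (adjusted p = 0.0617; 0.0293 to 0.0488 without replicate 4 of either group on day 5 or replicate 3 of shRNA-RUS on day 7, and 0.0185 with a pseudocount of 1, 0.0232 with quantile normalization and 0.0358 without the eBayes trend). *Col10a1*, the third gene of this class, was below the minimum.

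Of the 8 FACIT collagens tested, 1 was higher and 4 lower on day 5, and 2 were higher and 4 lower on day 7. *Col16a1* (chr4:130047840-130099283, plus strand), a minor collagen of many matrices, measured 20.6, 23.6, 21.96 and 23.98 scaled TPM in shRNA-CON against 10.7, 14.7, 13.6 and 12.8 in shRNA-RUS on day 5, and 16.5, 15.6, 14.2 and 13.2 against 7.69, 7.26, 7.77 and 7.36 on day 7. Its shRNA-RUS libraries lay below all controls on both days (-0.80 ± 0.10 and -0.96 ± 0.076, limma adjusted p = 0.000415 and 6.93e-06). *Col22a1*, known from tissue junctions such as that of muscle and tendon (chr15:71795795-72034227, minus strand), measured 6.28, 5.67, 6.45 and 7.79 scaled TPM against 3.95, 4.39, 3.69 and 3.298 on day 5, and 11.7, 9.67, 10.4 and 10.1 against 2.94, 3.49, 4.86 and 3.601 on day 7. The controls rose by 0.67 on the log2 scale between the days while shRNA-RUS stayed near its day 5 level, and the fold change went from -0.75 ± 0.12 to -1.47 ± 0.14 (limma adjusted p = 0.00167 and 2.27e-05). *Col14a1*, which binds the surface of collagen I fibrils (chr15:55307750-55520803, plus strand), measured 1.25, 1.14, 1.32 and 1.12 scaled TPM against 0.746, 0.830, 0.948 and 0.722 on day 5, and 2.098, 2.395, 1.998 and 1.69 against 0.722, 0.733, 0.672 and 0.582 on day 7. Its groups did not overlap on either day, and the fold change of -1.46 ± 0.15 on day 7 was among the lowest of all members (limma adjusted p = 2.87e-05). On day 5 it was -0.51 (adjusted p = 0.0243), and the call was lost without replicate 1 or 3 of shRNA-CON or replicate 1 of shRNA-RUS (adjusted p of 0.0573 to 0.0747), with no filter (0.067) and with quantile normalization (-0.34, adjusted p = 0.115). With a pseudocount of 1 the fold change was -0.27 and stayed called.

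*Col12a1*, the abundant relative of *Col14a1* (chr9:79598991-79718831, minus strand), measured 33.1, 37.5, 35.97 and 33.5 scaled TPM in shRNA-CON against 22.4, 30.1, 29.2 and 30.1 in shRNA-RUS on day 5, and 16.3, 16.8, 15.4 and 14.03 against 20.1, 24.97, 24.8 and 24.6 on day 7. It was below the controls in all shRNA-RUS libraries on day 5 (-0.33 ± 0.10, limma adjusted p = 0.0324) and above them in all on day 7 (0.60 ± 0.087, adjusted p = 0.000303). The day 5 call was lost without replicate 2, 3 or 4 of shRNA-CON or replicate 3 of shRNA-RUS (adjusted p of 0.0514 to 0.0844), with no filter (0.0517) and without the eBayes trend (0.0611). The 3 genes of collagen IX, which decorates collagen II fibrils, did not move together. *Col9a1* (chr1:24177610-24252684, plus strand) measured 0.932, 0.785, 0.906 and 0.938 scaled TPM against 1.69, 1.39, 1.65 and 1.595 on day 5, and 1.57, 1.799, 1.39 and 1.704 against 0.731, 0.687, 0.763 and 0.809 on day 7. All shRNA-RUS libraries lay above the controls on day 5 (0.76 ± 0.13, limma adjusted p = 0.00217) and below them on day 7 (-1.01 ± 0.13, adjusted p = 0.000164). *Col9a3* (chr2:180597790-180622189, plus strand) measured 30.1, 29.1, 30.1 and 33.3 scaled TPM against 37.98, 46.1, 44.9 and 29.3 on day 5, and 6.19, 6.74, 6.45 and 5.89 against 13.01, 13.3, 14.6 and 14.9 on day 7. It fell between the days in both groups and was 2.21 times the control mean in shRNA-RUS on day 7 (1.15 ± 0.07, limma adjusted p = 1.43e-06). On day 5 the adjusted p was 0.0747, and 0.00204 without replicate 4 of shRNA-RUS. The ratio of *Col9a3* to *Col9a1* in shRNA-CON was 32.3 to 37.1 on day 5 and 3.46 to 4.63 on day 7, against 18.4 to 33.1 and 17.8 to 19.3 in shRNA-RUS. Exons of *Tcfl5* on the other strand cover 6.07% of those of *Col9a3*, and reads from the 2 genes may not be told apart there. *Col9a2* was called on neither day, though lower on day 5 without replicate 2 of shRNA-RUS (limma adjusted p = 0.0289), with TPM as deposited (0.0206) or with 75th percentile scaling (0.048), and *Col20a1* was called higher on day 7 without replicate 1 of shRNA-CON (adjusted p = 0.0459) and with quantile normalization (adjusted p = 0.033). *Col9a2* measured 1.59 ± 0.292 scaled TPM in shRNA-CON against 1.74 ± 0.319 in shRNA-RUS on day 7 (SD, n = 4).

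Both multiplexins were lower on day 5 and *Col18a1* was lower on day 7. *Col18a1*, a proteoglycan of basement membranes whose end fragment is endostatin (chr10:77052178-77166548, minus strand), measured 50.1, 54.1, 52.6 and 51.1 scaled TPM in shRNA-CON against 26.5, 36.7, 34.1 and 33.1 in shRNA-RUS on day 5, and 17.6, 17.9, 18.97 and 16.2 against 6.42, 8.82, 9.85 and 8.64 on day 7. It dropped between the days in both groups, by -1.55 and -1.94 on the log2 scale, and every shRNA-RUS library lay below every control on each day (-0.68 ± 0.095 and -1.06 ± 0.12, limma adjusted p = 0.000703 and 7.62e-05). *Col15a1*, its relative, stood at 0.638 ± 0.206 against 0.245 ± 0.0957 scaled TPM on day 5 (SD, n = 4; limma adjusted p = 0.0163) and at 0.547 ± 0.232 against 0.497 ± 0.182 on day 7.

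Among the transmembrane collagens, *Col23a1* (chr11:51289920-51583918, plus strand) was the only one above 1 scaled TPM. It measured 1.51, 1.68, 1.91 and 1.25 scaled TPM in shRNA-CON against 1.89, 2.41, 2.02 and 2.38 in shRNA-RUS on day 5, and 0.774, 0.734, 0.761 and 0.880 against 2.16, 1.897, 2.63 and 2.31 on day 7. The controls fell between the days and shRNA-RUS did not, and on day 7 the level in shRNA-RUS was 2.86 times that in shRNA-CON (1.42 ± 0.13, limma adjusted p = 2.01e-05). On day 5 the fold change of 0.44 missed the threshold (adjusted p = 0.0532), and it passed without replicate 3 of shRNA-CON (adjusted p = 0.041), with quantile normalization (0.61, adjusted p = 0.0161) and without the eBayes trend (0.0493). *Col13a1*, *Col17a1* and *Col25a1* had group means of at most 0.262 scaled TPM and were not called, and neither were *Col26a1* (5.997 ± 0.713 and 6.19 ± 0.414 on day 7, SD, n = 4) and *Col28a1*, which belong to none of these classes.

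No laminin was called on day 5 with limma, where *Lama1* (-0.65, adjusted p = 0.0517) and *Lamb1* (-0.35, adjusted p = 0.0529) alone had an unadjusted p under 0.05. On day 7, 2 of the 10 tested were called higher, *Lamb2* among them, and 3 lower, with medians of -0.20 on day 5 and -0.12 on day 7 on the log2 scale. *Lamb2*, whose values are given above (chr9:108479736-108490530, plus strand), was higher by 0.55 ± 0.11 in log2 units (limma adjusted p = 0.00287), and all 4 shRNA-RUS libraries lay above the controls. On day 5 it gave 0.074 ± 0.13 (adjusted p = 0.708), with replicate 1 of shRNA-RUS below all controls, and without that library 0.23 (adjusted p = 0.0281). *Lama5*, the alpha chain of many basement membranes (chr2:180176373-180225859, minus strand), measured 67.7, 68.1, 59.7 and 62.6 scaled TPM in shRNA-CON against 42.96, 67.00, 62.8 and 55.04 in shRNA-RUS on day 5, and 42.96, 40.9, 45.03 and 34.8 against 34.3, 37.9, 43.6 and 48.1 on day 7. Its groups overlapped on both days (-0.20 ± 0.13 and 0.012 ± 0.11, limma adjusted p = 0.275 and 0.95). *Lamc1*, the most widely used gamma chain (chr1:153218922-153332786, minus strand), measured 45.5, 48.1, 43.9 and 43.8 scaled TPM against 31.3, 38.9, 38.8 and 46.5 on day 5, and 44.1, 46.9, 45.8 and 44.3 against 42.2, 52.7, 47.7 and 47.1 on day 7. The groups overlapped here too (-0.23 ± 0.11 and 0.077 ± 0.064, limma adjusted p = 0.125 and 0.364), and without replicate 4 of shRNA-RUS *Lamc1* was called lower on day 5 (adjusted p = 0.018), as it was with TPM as deposited (0.0386).

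The other alpha chains were lower where they were called. *Lama2*, the alpha chain of muscle and nerve laminin (chr10:26980036-27619758, minus strand), measured 4.32, 4.58, 4.85 and 3.91 scaled TPM in shRNA-CON against 2.84, 3.44, 3.63 and 4.79 in shRNA-RUS on day 5, and 4.51, 4.45, 4.71 and 4.94 against 3.35, 3.93, 3.77 and 3.32 on day 7. On day 7 all shRNA-RUS libraries lay below the controls (-0.35 ± 0.084, limma adjusted p = 0.00622), and on day 5 the difference was called only without replicate 4 of shRNA-RUS (adjusted p = 0.0287, against 0.197 with it). *Lama4*, the alpha chain of vessel walls (chr10:38965515-39110188, plus strand), measured 3.15, 3.19, 3.74 and 3.22 scaled TPM against 3.75, 4.74, 3.24 and 2.93 on day 5, and 1.399, 1.101, 1.04 and 1.23 against 0.546, 0.642, 0.700 and 0.800 on day 7. It fell in both groups between the days and was lower in shRNA-RUS on day 7 (-0.74 ± 0.16, limma adjusted p = 0.00408). *Lama3*, an epithelial alpha chain, was lower on day 7 as well (1.69 ± 0.0886 in shRNA-CON and 0.824 ± 0.185 scaled TPM in shRNA-RUS, SD, n = 4, limma adjusted p = 0.00113). *Lamb1*, an early beta chain, stood at 4.25 ± 0.231 against 3.34 ± 0.495 scaled TPM on day 5 (limma adjusted p = 0.0529) and was called lower without replicate 3 of shRNA-RUS (adjusted p = 0.0437), with a filter at 1 TPM (0.0417), with TPM as deposited (0.0215) and with 75th percentile scaling (0.0364). *Lama1*, the alpha chain of the first embryonic basement membranes, stood at 1.12 ± 0.271 against 0.671 ± 0.163 scaled TPM on day 5 and was called lower without replicate 2 of shRNA-CON (adjusted p = 0.03) or replicate 4 of shRNA-RUS (adjusted p = 0.0248), and with a pseudocount of 1 (0.0499), TPM as deposited (0.0299) or 75th percentile scaling (0.0442). *Lama3* was called lower on day 5 without the eBayes trend (adjusted p = 0.0131).

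Whether the knockdown effect differed between the days was tested in 1 fit of all 16 libraries. The effect was higher on day 7 for 7 of 47 members and lower for 5, beside 15.2% and 14.6% of 23789 genes. The largest called differences were those of *Col9a1* (-1.78 ± 0.17, SE, limma adjusted p = 4.38e-06), *Col14a1* (-0.94 ± 0.19, adjusted p = 0.0016) and *Lama4* (-0.86 ± 0.21, adjusted p = 0.00624) in the negative direction. In the positive direction they were those of *Col27a1* (1.03 ± 0.17, limma adjusted p = 0.000374), *Col23a1* (0.96 ± 0.20, adjusted p = 0.00195) and *Col12a1* (0.92 ± 0.14, adjusted p = 0.00017). *Col22a1* (-0.73) and *Col11a1* (-0.44) were also called negative, and *Col4a3* (0.89), *Col9a3* (0.78), *Col4a6* (0.68) and *Col5a2* (0.23) positive. The call of *Col5a2* (limma adjusted p = 0.0423) was lost when any one of 12 of the 16 libraries was left out, namely any but replicate 2 of shRNA-CON and replicates 3 and 4 of shRNA-RUS on day 5 and replicate 4 of shRNA-RUS on day 7 (adjusted p of 0.0597 to 0.0865). *Lamb2* was called positive without replicate 1 of shRNA-RUS on day 7 (adjusted p = 0.0218) and with TPM as deposited or quantile normalization (0.0212 each), and *Col18a1* negative without replicate 1 of shRNA-RUS on day 5 or replicate 3 of shRNA-RUS on day 7 (adjusted p = 0.0237 and 0.0352). Leaving out replicate 3 of shRNA-CON on day 7 made *Col1a1*, *Col3a1* and *Col15a1* positive (limma adjusted p = 0.0375, 0.0322 and 0.0398), and leaving out replicate 2 of shRNA-RUS on day 5 did so for *Col1a1* and *Col9a2* (0.0489 and 0.0417). Without replicate 1 of shRNA-RUS on day 7, *Col6a2* and *Col9a2* were positive (0.0218 and 0.0379). *Lamc1* was positive without replicate 4 of shRNA-RUS on day 5 (0.0113), and *Lamb3* negative without replicate 1 of that group (0.0115). With TPM as deposited 13 were called higher, *Col1a1*, *Col6a2*, *Col9a2*, *Lamb2* and *Lamc1* among them, and 4 lower, without *Col11a1* (-0.27, adjusted p = 0.0647), beside 5700 and 2053 of all genes, whose median moved from 0.038 to 0.19. With a pseudocount of 1, *Lama3* was called negative (limma adjusted p = 0.00497), and the call of *Col5a2* was also lost with no filter (0.0609) and without the eBayes trend (0.0653).

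**Figure D4:**
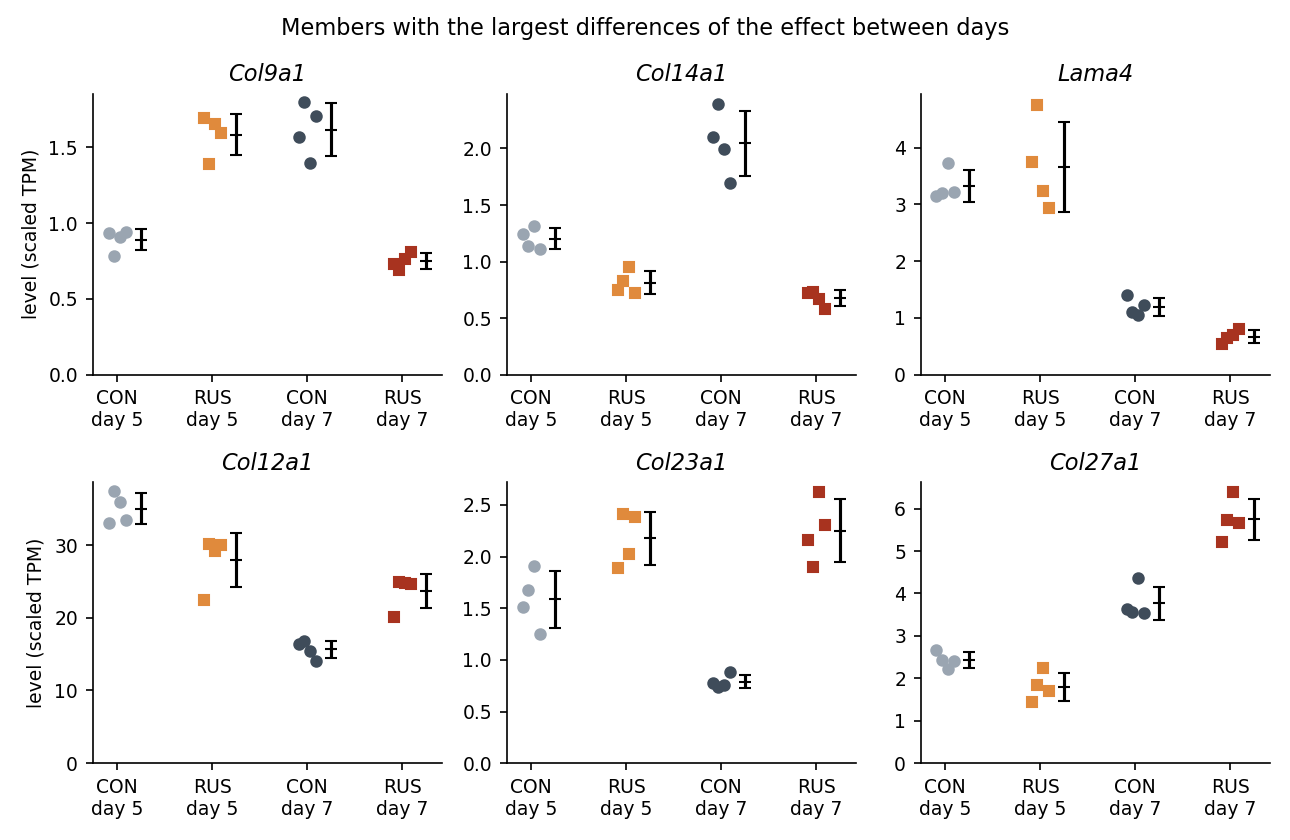
Level in scaled TPM, from 0, of the 6 members with the 3 largest called differences of the knockdown effect between days in each direction, with 1 point per library and black bars for the mean ± SD (n = 4). *Col9a1* is higher in shRNA-RUS on day 5 and lower on day 7, and *Col12a1* and *Col27a1* are the reverse.

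Between day 5 and day 7 most called members fell. In shRNA-CON, 10 of 47 members rose and 22 fell, beside 26.9% and 21.6% of 23789 genes, with a median log2 change of -0.20 over the members and 0.067 over all genes. The chains of collagen VI split: *Col6a5* rose by 2.77 (limma adjusted p = 4.01e-09) while *Col6a1* and *Col6a2* changed by -2.17 and -1.87. *Lama3* rose by 1.89, and *Col4a4*, *Col4a3* and *Col4a2* by 0.92, 0.74 and 0.34. *Col9a3* (-2.26), *Col1a2* (-1.97), *Col1a1* (-1.76), *Col18a1* (-1.55) and *Lama4* (-1.41) fell most among the others. In shRNA-RUS, 9 rose and 20 fell, beside 35.0% and 25.8% of all genes, and the median was -0.23 over the members and 0.13 over all genes. With TPM as deposited 14 rose and 11 fell in shRNA-RUS, beside 11801 and 3545 of all genes tested, and with quantile normalization 8 rose and 26 fell, beside 7005 and 6857. The day changes of both shRNAs and the knockdown effects share libraries and are not independent of each other.

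Genes that make, bind or cut these proteins were counted over fixed lists, chosen by function. Beside these counts stand 14.8% of all genes called higher and 17.9% lower on day 5, and 23.4% and 25.8% on day 7, and several lists lay near those shares. Of 8 basement membrane partners, 1 was higher and 4 lower on day 5, and 1 was higher and 3 lower on day 7, with medians of -0.29 and -0.037. *Nid1*, which joins laminin to collagen IV, was at -0.62 and -0.92 on the log2 scale (limma adjusted p = 0.0464 and 0.000416), *Fbln2* was at -0.57 on day 5, *Ntn4* at -0.61 on day 7, *Sparc*, which binds collagen, at 0.26 on day 5, and the proteoglycan *Agrn* at 0.40 on day 7. Of 19 genes of collagen folding and modification, 7 were higher and 5 lower on day 5, and 8 were higher and 6 lower on day 7 (medians 0.063 and -0.048). *Serpinh1*, the collagen chaperone, was lower on both days (-0.84 ± 0.084 and -1.03 ± 0.061, limma adjusted p = 0.000116 and 1.19e-06), as was the prolyl hydroxylase *P3h2* (-0.55 and -1.13). *P4hb* (0.72) and *Ppib* (0.49), which help collagen fold, were higher on day 5, and the prolyl hydroxylases *P4ha3* (0.98) and *P3h3* (0.64) on day 7.

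Of the 14 genes of procollagen processing and crosslinking, 3 were higher and 4 lower of 14 tested on day 5, and 4 and 4 of 13 on day 7 (medians -0.12 and 0.13). *Adamts2*, which removes the N-terminal end of fibrillar procollagens, rose by 0.76 ± 0.10 on day 5 and 2.37 ± 0.096 on day 7 (limma adjusted p = 0.000537 and 1.86e-07). The crosslinking enzyme *Loxl1* was higher (0.66 and 0.93) and its relative *Lox* lower (-0.66 and -0.75) on both days, *Tll1* was at -1.12 on day 5 and *Pcolce*, an enhancer of procollagen cleavage, at -0.56 on day 7. Of 14 collagen and laminin receptors, 4 were higher and 2 lower on day 5, and 7 higher and 2 lower on day 7 (medians -0.19 and 0.11). The collagen receptors *Itga1* (0.46 on day 5) and *Itga2* (0.98 on day 7) and the laminin receptor *Itga7* (0.43 and 0.69) were higher, and the laminin receptor *Bcam* (-0.49 and -0.47) was lower. *Adgrg1*, a receptor for collagen III in the developing cortex, was at -0.64 on day 5, and the collagen receptor *Ddr2* at -0.29 on day 7. Of the matrix proteases and their inhibitors, 4 of 10 were higher and 1 lower on day 5, and 5 of 9 were higher and 2 lower on day 7 (medians 0.077 and 0.40). The proteases *Mmp3* (1.05 and 1.80) and *Mmp14* (0.72 and 1.37) rose on both days, the inhibitor *Timp3* fell (-1.06 and -0.56), and *Timp4* was at -0.34 on day 7.

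Other cell types that make collagens and laminins were looked for by their markers, as TPM as deposited summed over each list. These sums were not divided by library factors. On day 5 the factors were 0.845 to 0.928 in shRNA-RUS against 0.943 to 1.02 in shRNA-CON, so small gaps between sums on that day may depend on the scale. The 12 markers of meningeal fibroblasts summed to 159 to 179 TPM in shRNA-CON against 118 to 145 in shRNA-RUS on day 5, and to 215 to 256 and 180.2 to 223 on day 7. *Ogn*, *Fmod* and *Pdgfra* carried this sum, while *Aldh1a2* was at 0 in 10 of the 16 libraries, *Twist2* in 9, *Slc6a13* in 8, *Tbx18* in 5 and *Lum* in 1. Of 6 tested, 1 was higher and 2 lower on each day, *Foxc1* by 0.74 and 0.78, *Pdgfra* by -1.14 and -0.83, and *Fmod* by -0.36 and -0.39. The 11 pericyte and smooth muscle markers summed to 694 to 764 TPM against 393 to 432 on day 5, and to 453 to 501 against 391 to 495 on day 7. *Acta2* and *Tagln* made up nearly all of that, and *Vtn* was at 0 in 4 libraries, *Kcnj8* in 2 and *Des* in 1. Of 9 tested on day 5, 1 was higher (*Pdgfrb*, 0.32) and 4 lower (*Anpep*, -1.22, and *Tagln*, -1.15, the most), and of 8 on day 7, 2 were higher (*Pdgfrb*, 1.32, and *Acta2*, 0.25) and 1 lower (*Tagln*, -0.71). The part of such cells in the collagen and laminin levels was not tested.

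The 10 endothelial markers summed to 10.5 to 11.8 TPM in shRNA-CON against 6.02 to 8.0 in shRNA-RUS on day 5, and to 12.1 to 13.5 against 6.01 to 7.24 on day 7. The defining genes *Cdh5* and *Cldn5* were each at 0 in 10 of the 16 libraries, *Tie1* in 9 and *Emcn* in 4, and *Kdr* (-0.91 and -1.30) and *Egfl7* (-0.54 and -1.25) were lower on both days while *Esam* was higher on day 7 (0.85), of 6 tested. The 8 microglia markers summed to 115 to 127 TPM against 99.4 to 123 on day 5, and to 287 to 317 against 135 to 165 on day 7. None was at 0 in a library. Of these, 3 were lower on day 5 and all 8 on day 7, *Tmem119* (-0.97 and -1.50) and *Csf1r* (-0.54 and -1.29) the most. The 8 stem cell markers summed to 12789 to 14059.85 TPM against 16541 to 18015 on day 5, and to 7324 to 7766 against 7817 to 8560.02 on day 7. *Vim* and *Fabp7* carried most of this sum, with means of 7890 and 2619 TPM over the 16 libraries, against 60.7 for *Nes* and 6.83 for *Hes5*. Of the 8 markers, 4 were higher and 2 lower on day 5 and 3 each on day 7, with *Vim* (0.55) and *Fabp7* (0.52) higher on day 5, *Sox9* (0.58) and *Pax6* (0.20) on day 7, and *Nes* (-0.87 and -1.19) and *Hes5* (-0.67 and -0.83) lower on both. The 7 neuron markers summed to 457 to 565 TPM against 426 to 474 on day 5, and to 759 to 842 against 719 to 847 on day 7, with 2 higher and 2 lower on day 5 (*Stmn2*, 0.58, and *Syt1*, 0.33, against *Dcx*, -0.49, and *Map2*, -0.46) and 3 higher and 2 lower on day 7 (*Snap25*, 0.61, and *Syt1*, 0.57, against *Map2*, -0.23, and *Stmn2*, -0.14). The part of microglia and neurons in the levels of the members was not tested.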

How the data were processed

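RNA-seq of polyA RNA from 16 libraries was aligned by the authors with STAR to mm10 and quantified with RSEM. The deposited values are TPM per gene and library, rounded and scaled to 1000000 within each library, in a table for each day, and the authors' own fold changes and p-values (DESeq2) in the same tables were not used. The day of a column was taken from its table's name. The day 5 fit left out 3 lines without a gene name, which summed to at most 3857 TPM in a library. The fit of all 16 libraries left out 106 lines whose gene name was missing or differed between the days. No read counts were used, so depth and its counting error are unknown.

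TPM were divided by median-ratio library factors (genes of at least 1 TPM in all libraries of a fit), and log2(value + 0.1) was fitted with limma 3.58.1 (R 4.3.3, trended eBayes) over genes whose mean was 0.1 TPM or more, within each day, and over all 16 libraries for the difference between days and for time. Fold changes on this scale understate those of low genes. Printed levels are scaled with the 16-library factors, so they can differ slightly from the day fits. Adjusted p are Benjamini-Hochberg values over all genes, called under 0.05. The fit was tested on simulated data. Whether quantification used strand is not given in the sources used here. Positions are from GENCODE vM21 and start windows from RefSeq GRCm38.p6. Other steps used Python 3.11.15 with pandas 2.3.3, and exact permutation tests scipy 1.17.1.

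Members given with all libraries were the 6 collagens and 5 laminins with the highest mean TPM, the 5 largest called changes in each direction on each day, and the 3 largest called differences between days in each direction (means of at least 1 TPM); of each other list the 2 largest called changes in each direction and day were named. *Col6a2* and single values of other members were added after their values were seen. A single laminin is counted and is not reported by name here. The members and lists were chosen with earlier results of these data known. Alternatives were other pseudocounts (1 and 0.01), filters, scalings, eBayes without trend, a replicate block, a fold change minimum of 1.5 and leaving out each library.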

Additional observations from a re-analysis of the deposited data

Results flagged for a closer look

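Of 96 groups of 4 libraries examined for the named members, 6 held a library apart from the other 3 by Dixon's criterion, where chance gives about 1 in 20. In shRNA-RUS, *Col12a1* was at 22.4 scaled TPM in replicate 1 on day 5 (29.2 to 30.1 in the others) and at 20.1 in replicate 1 on day 7 (24.6 to 24.97), *Col4a5* at 116 in replicate 4 on day 5 (90.4 to 94.5) and *Col8a1* at 13.0 in replicate 4 on day 7 (15.8 to 16.1). In shRNA-CON, *Col27a1* was at 4.35 in replicate 3 on day 7 (3.54 to 3.63) and *Lama4* at 3.74 in replicate 3 on day 5 (3.15 to 3.22).

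The knockdown effect differed between the days, on the log2 scale and by the test of the difference itself (limma), for 12 members. It was higher on day 7 for *Col27a1* (1.03), *Col23a1* (0.96), *Col12a1* (0.92), *Col4a3* (0.89), *Col9a3* (0.78), *Col4a6* (0.68) and *Col5a2* (0.23), and lower for *Col9a1* (-1.78), *Col14a1* (-0.94), *Lama4* (-0.86), *Col22a1* (-0.73) and *Col11a1* (-0.44).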

How the results depend on the processing

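Of 42 calls of named members, 32 were kept in every alternative, 10 were lost in at least 1 and 0 changed sign, while 8 of the uncalled results passed in at least 1. Members called higher and lower on day 5 numbered 2 and 10, against 1 and 16 with TPM as deposited and 5 and 8 with quantile normalization. A fold change of at least 1.5 left 1 member higher on day 5, beside 865 of 22581 genes. It left 9 higher on day 7, beside 2421 of 24606 genes. With TPM as deposited, which moved the median of all genes to -0.21 on day 5, 0.19 for the difference between days, 0.20 for time in shRNA-CON and 0.41 in shRNA-RUS, the difference between days was called positive for 13 members, and in shRNA-RUS 14 rose and 11 fell with time. With a fold change of at least 1.5, 13 fell with time in shRNA-RUS, beside 3426 of 23789 genes. Leaving out 1 library gave 2 to 6 higher and 7 to 12 lower on day 5, 14 to 17 higher on day 7 and 6 to 9 positive differences. Counts of all genes in those runs are not given here. Divided by library factors, the collagen sum was 534 in shRNA-CON against 506 in shRNA-RUS on day 5, and on day 7 344 in shRNA-CON against 366 in shRNA-RUS, and the laminin sum 254 in shRNA-CON against 247 in shRNA-RUS on day 5.

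Directions that turned, none of them called, were those on day 5 of *Col4a5* (-0.14 with TPM as deposited, -0.11 with quantile normalization, -0.0072 with 75th percentile scaling, -0.058 to 0.064 leaving out 1 library), *Col4a6* (-0.097, -0.0076 with quantile normalization, -0.042 to 0.17 leaving out 1 library), *Col5a2* (-0.12, -0.022 with quantile normalization, -0.0016 to 0.084), *Lama4* (-0.035, -0.0094 to 0.22) and *Lamb2* (-0.084, -0.041 with quantile normalization), and on day 7 of *Lama5* (-0.026 with quantile normalization, -0.013 with 75th percentile scaling, -0.068 to 0.096). The cause was not tested.

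Whether the replicate numbers pair the libraries was not settled. Within day 5, deviations of same-numbered shRNA-CON and shRNA-RUS libraries correlated at -0.078, -0.100, -0.016 and -0.252. Within day 7 the correlations were 0.030, 0.101, 0.057 and 0.016. So few values cannot exclude pairing, and libraries of day 5 were not compared with those of day 7. With the replicate block, 2 members were called higher and 7 lower on day 5, beside 2231 and 2735 of 22581 genes (3349 and 4034 without the block). *Col14a1*, *Col15a1* and *Col27a1* were lost there (limma adjusted p = 0.0736, 0.061 and 0.127). On day 7, 16 members were higher and 12 lower, beside 5330 and 5895 of 24606 genes. For the difference between days, 7 were positive and 6 negative, beside 3365 and 3257 of 23789 genes. In that fit *Col5a2* was lost (limma adjusted p = 0.0662), and *Lamb2* (0.46, adjusted p = 0.0422) and *Col18a1* (-0.39, adjusted p = 0.0347) were gained. TPM keep no depth, so what depth limits cannot be given.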
